A study of Mus musculus with 8 samples.

Results

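The proteases studied here are 10 members of the ADAM and ADAMTS families, listed by symbol: Adam8, Adam9, Adam10, Adam12, Adam15, Adam17, Adam19, Adamts1, Adamts5 and Adamts9. They were found as the probe sets that carry 1 of these symbols and no other, which gave 24 of 28898 probe sets and 10 of 17097 genes, and for each gene the probe set with the highest mean over the 8 arrays leads. Affymetrix arrays measured gene expression in basal cells sorted from the epidermis of CD1 mice (an outbred stock), with skin taken from the back. The arrays labelled EXPD4 came from 3 mice at day 4 of force-mediated skin expansion, those labelled TPA from 2 mice given TPA (12-O-tetradecanoylphorbol-13-acetate, which is a phorbol ester and protein kinase C activator), and the arrays labelled CTRL from 3 untreated mice. Each array held the amplified cDNA of 300 cells that were positive for the integrin ITGA6 and negative for CD34, a gate that takes in the infundibulum, the upper part of the hair follicle. The skin was held in trypsin in the cold overnight before the sort, and the labels give neither age, nor sex, nor the dose and timing of TPA. Signals are log2 values from RMA, where a step of 1 is a 2-fold change, and signals of different genes cannot be compared as levels.

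ADAM proteins are membrane-anchored metalloproteases of the cell surface. Several of them are sheddases, which cut other membrane proteins near the membrane and release their outer parts, among them ligands of the EGF receptor, cytokine receptors, Notch and cadherins. ADAMTS proteins are their secreted relatives with thrombospondin repeats, and several cut proteoglycans of the matrix such as versican and aggrecan. In epidermis, ADAM10 and ADAM17 are best known for their part in Notch and EGF receptor signalling.

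Of the basal markers, Krt5, a keratin of basal cells, had signals of 13.26 to 13.31 in EXPD4 arrays, 13.33 and 13.34 in TPA arrays and 13.23 to 13.32 in CTRL arrays, near the top of the scale. Itga6, the integrin of the sort, was lower in EXPD4 (-0.47 ± 0.07, adjusted p = 0.00275) and in TPA (-0.69 ± 0.08, adjusted p = 0.000323) than in CTRL. Keratins of the suprabasal layers were also bright: Krt10 had 12.70 to 12.75 in EXPD4 arrays, 12.73 and 12.71 in TPA arrays and 10.90 to 11.92 in CTRL arrays, and Krt1 had 12.94 to 13.13 in EXPD4 arrays, 12.84 and 12.54 in TPA arrays and 10.49 to 12.09 in CTRL arrays. The part of these layers in the protease differences was not tested. Known TPA-responsive and wound genes, however, ran against the group labels. Odc1, the polyamine enzyme gene that TPA is known to induce, had signals of 9.70 to 9.99 in the arrays labelled EXPD4, 8.93 and 9.05 in those labelled TPA and 11.33 to 11.36 in those labelled CTRL. Krt16, a keratin of wounded and hyperproliferative epidermis, likewise had 12.20 and 12.10 in TPA arrays and 13.03 to 13.05 in CTRL arrays. Krt6a, a partner of Krt16, had 12.44 and 12.65 in TPA arrays and 13.16 to 13.29 in CTRL arrays, and Krt6b had 6.47 and 11.27 in TPA arrays and 12.77 to 12.82 in CTRL arrays. All 4 of these genes were lower in TPA than in CTRL (adjusted p up to 0.0308). Whether the TPA and CTRL labels were exchanged was not tested, and an exchange would turn every direction between TPA and CTRL and change which arrays EXPD4 is set against. Groups are named by their labels throughout, and each direction follows those labels as given. With no detection calls, the background limit of an array was set at the 95th percentile of 79 smell, vomeronasal and trace amine receptor genes, 6.37 to 6.55. A gene is called here at an adjusted p under 0.05 in limma's moderated test over all genes. Differences carry the SE of that fit, and a lower signal from sorted cells cannot tell fewer cells of a type from less RNA per cell.

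Promoter windows of RefSeq (build GRCm38.p6, from 250 bases before to 50 after an annotated start) were found for 7 of the 10 members, in 9 windows. Those of Adam8, Adam10 and Adamts9 are shown, because these members passed the test in both comparisons that involve the TPA arrays. They are read 5′ to 3′ along the gene, and capitals mark GC boxes, the letters GGGCGG on either strand. The window of Adam8 lies at chr7:139992513-139992812 on the minus strand, that of Adam10 at chr9:70678732-70679031 on the plus strand and that of Adamts9 at chr6:92943485-92943784 on the minus strand.
Adam8: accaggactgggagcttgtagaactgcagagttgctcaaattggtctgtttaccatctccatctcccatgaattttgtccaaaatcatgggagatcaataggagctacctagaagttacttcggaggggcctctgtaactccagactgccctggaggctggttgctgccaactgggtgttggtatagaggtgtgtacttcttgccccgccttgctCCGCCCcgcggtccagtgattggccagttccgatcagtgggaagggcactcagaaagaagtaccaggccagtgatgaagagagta
Adam10: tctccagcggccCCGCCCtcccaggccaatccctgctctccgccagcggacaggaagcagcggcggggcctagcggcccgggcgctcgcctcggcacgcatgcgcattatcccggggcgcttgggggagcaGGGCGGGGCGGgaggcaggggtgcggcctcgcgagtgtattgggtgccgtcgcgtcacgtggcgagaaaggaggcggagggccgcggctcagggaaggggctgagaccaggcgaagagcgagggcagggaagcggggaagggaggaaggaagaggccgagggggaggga
Adamts9: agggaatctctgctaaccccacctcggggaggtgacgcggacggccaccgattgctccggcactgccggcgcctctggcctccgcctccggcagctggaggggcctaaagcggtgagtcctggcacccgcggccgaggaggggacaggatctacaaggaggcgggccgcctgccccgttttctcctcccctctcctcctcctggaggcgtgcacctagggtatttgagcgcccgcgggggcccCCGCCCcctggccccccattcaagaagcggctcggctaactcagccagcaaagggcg
The Adam8 window holds 1 GC box, which begins 35 bases before the start, the Adamts9 window also holds 1, and the Adam10 window holds 3, a pair of which overlap. Of all 32851 RefSeq windows of this length, 35.7% hold at least 1. None of the 3 windows holds an AP-1 motif (TGANTCA, in 7.81% of all windows), a cyclic AMP response element (TGACGTCA, in 1.79%) or a TATA box (TATAAA, in 13.6%) on either strand. The GC content was 52.3% for Adam8, 73.3% for Adam10 and 70.0% for Adamts9. RefSeq's span of each of these genes begins further upstream than the start used, so other starts lie outside or at another place in these windows.

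Adam10 encodes the sheddase that cuts Notch receptors after ligand binding, and also E-cadherin. Its leading probe set gave 9.91, 10.18 and 10.09 in EXPD4 arrays, 9.62 and 9.56 in TPA arrays and 10.35, 10.25 and 10.14 in CTRL arrays. The TPA arrays were lowest with no overlap with either other group, while EXPD4 and CTRL arrays overlapped. Adam10 was lower in TPA than in CTRL (-0.65 ± 0.10, adjusted p = 0.00215 by limma) and higher in EXPD4 than in TPA (0.47 ± 0.10, adjusted p = 0.0327), whereas EXPD4 and CTRL differed by -0.19 ± 0.09 (adjusted p = 0.266). The call between EXPD4 and TPA held in 9 of 18 alternatives. It was lost when any of 5 arrays was dropped (CTRL replicate 2, EXPD4 replicates 2 and 3, and TPA replicates 1 and 2), with adjusted p up to 0.12. It was lost as well with the arrays centred on their medians (adjusted p = 0.058), with only the EXPD4 and TPA arrays fitted (adjusted p = 0.0742), with the next probe set (adjusted p = 0.0547) and with replicate number as a block (adjusted p = 0.0941).

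Adam17 encodes the main sheddase of TNF and of most EGF receptor ligands. It had signals of 10.51, 10.52 and 10.32 in EXPD4 arrays, 10.42 and 10.40 in TPA arrays and 10.35, 10.46 and 10.23 in CTRL arrays, and each pair of groups overlapped. The difference was 0.10 ± 0.09 between EXPD4 and CTRL, with a 95% interval of -0.10 to 0.30, and 0.06 ± 0.10 between TPA and CTRL, with an interval of -0.16 to 0.28. The adjusted p was 0.576 and 0.728. Neither interval reaches a change of 1.5-fold.

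Adam9 and Adam15 encode 2 further membrane ADAMs of epithelial cells. Adam9 had 7.68, 8.07 and 7.79 in EXPD4 arrays, 7.49 and 7.44 in TPA arrays and 8.04, 7.78 and 8.06 in CTRL arrays. Both TPA arrays lay below all others, and EXPD4 and CTRL arrays overlapped. Adam9 was lower in TPA than in CTRL (-0.49 ± 0.13, adjusted p = 0.0298), but the call held in 11 of 17 alternatives only. Its losses included the fits without CTRL replicate 1 or 3 or either TPA array. They also included the fit with replicate number as a block (adjusted p = 0.0919). Adam15 had 9.56, 9.69 and 9.67 in EXPD4 arrays, 9.52 and 9.39 in TPA arrays and 9.53, 9.31 and 9.15 in CTRL arrays. All EXPD4 arrays lay above both other groups, by a small amount, and the difference from CTRL was 0.31 ± 0.10 (adjusted p = 0.0973). Without CTRL replicate 1, the highest of its group, the difference from CTRL was 0.41 and passed (adjusted p = 0.0296). Of 18 alternatives, this difference passed in 3 only.

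Adam8, a protease first known from myeloid cells, separated all 3 groups. It had 9.64, 9.56 and 9.69 in EXPD4 arrays, 8.64 and 9.05 in TPA arrays and 10.52, 10.55 and 10.25 in CTRL arrays. CTRL was highest, EXPD4 intermediate and TPA lowest, with no overlap between any of the groups. The signal was 1.76-fold lower in EXPD4 than in CTRL (-0.81 ± 0.12, adjusted p = 0.00368), 3.03-fold lower in TPA than in CTRL (-1.60 ± 0.14, adjusted p = 9.16e-05) and 1.73-fold higher in EXPD4 than in TPA (0.79 ± 0.14, adjusted p = 0.0139). Both differences from CTRL stayed called whichever of the 8 arrays was dropped, and that between EXPD4 and TPA was lost without TPA replicate 1 (adjusted p = 0.0706).

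Because Adam8 is a myeloid gene, the macrophage and neutrophil markers were set beside it. Of 8 measured markers, 4 lay under the background limit on every array, namely Adgre1, Itgam, Csf3r and Ptprc. The summed linear signal of the list was 521 to 553 in EXPD4 arrays, 521 and 526 in TPA arrays and 538 to 1004 in CTRL arrays. By replicate, the CTRL arrays had Adam8 signals of 10.52, 10.55 and 10.25 and sums of 1004, 538 and 806. Lyz2, an abundant myeloid transcript, was under the limit in all EXPD4 and TPA arrays and in CTRL replicate 2. Cd14, the 1 marker of the list that was called, was above the limit in all CTRL arrays (7.28, 6.64 and 6.91) and under it in all others. It was lower in EXPD4 (-0.88 ± 0.15, adjusted p = 0.00675 by limma) and in TPA (-0.91 ± 0.17, adjusted p = 0.00522) than in CTRL. The part of such cells in the Adam8 difference was not tested.

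**Figure D1:**
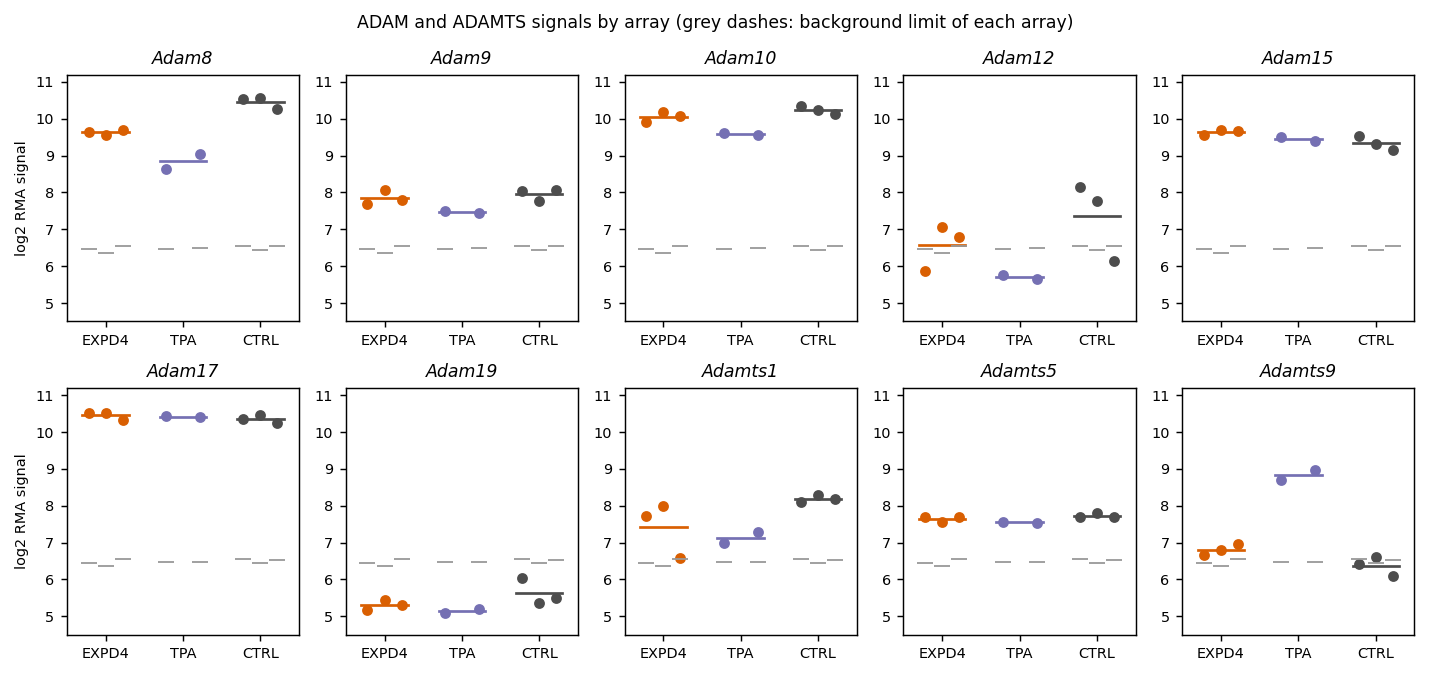
Log2 RMA signal (vertical axis) of the leading probe set of each member by array, with points for arrays, coloured bars for group means and grey dashes for the background limit of each array; groups run from EXPD4 through TPA to CTRL. Adam8 falls into 3 separate levels, Adamts9 stands at 8.69 and 8.97 in the TPA arrays alone, and Adam17 is level.

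Adam12 and Adam19 encode ADAMs linked to mesenchymal and muscle cells. Adam12 had 5.88, 7.07 and 6.80 in EXPD4 arrays, 5.75 and 5.65 in TPA arrays and 8.15, 7.77 and 6.13 in CTRL arrays. EXPD4 arrays were far apart, as were CTRL arrays, and both TPA arrays, EXPD4 replicate 1 and CTRL replicate 3 lay under the background limit. TPA minus CTRL was -1.66 ± 0.55 and did not pass (adjusted p = 0.0686). With the TPA signals raised to that limit, the CTRL mean was 1.84-fold brighter. This value is not a lower bound, because the difference did not pass and CTRL replicate 3 lay under the limit too. EXPD4 minus CTRL was -0.77 ± 0.49 (adjusted p = 0.423). Without CTRL replicate 3 the differences from CTRL were -1.38 for EXPD4 (adjusted p = 0.0448) and -2.27 for TPA (adjusted p = 0.00516). Of 17 alternatives, the EXPD4 difference passed in 1 only and the TPA difference in 3. Adam19 lay under the limit on all 8 arrays, at 5.17 to 5.45 in EXPD4 arrays, 5.10 and 5.21 in TPA arrays and 5.36 to 6.03 in CTRL arrays, so no change can be given for it.

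Adamts9 encodes a secreted protease that cuts versican and aggrecan, and it was the member with the largest called difference. It had 6.67, 6.80 and 6.97 in EXPD4 arrays, 8.69 and 8.97 in TPA arrays and 6.42, 6.62 and 6.08 in CTRL arrays. The TPA arrays stood far above all others, and the EXPD4 arrays lay just above the CTRL arrays. Adamts9 was 5.50-fold higher in TPA than in CTRL (2.46 ± 0.16, adjusted p = 2.4e-05) and lower in EXPD4 than in TPA (-2.02 ± 0.16, adjusted p = 0.000519). EXPD4 minus CTRL was 0.44 ± 0.15 (adjusted p = 0.0969). CTRL was above the background limit on 1 of 3 arrays, so the difference from CTRL is partly measured from background. Both differences passed in all 18 alternatives run, but their size depended on the probe set. TPA minus CTRL was 1.08 with the mean of the 3 probe sets and 0.61 with the next probe set (adjusted p = 0.0128), and EXPD4 minus TPA was -0.94 and -0.60 (adjusted p = 0.0385 for the next probe set).

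Adamts1, an aggrecanase that also restrains angiogenesis, neighbours Adamts5 on mouse chromosome 16. It had 7.73, 7.98 and 6.58 in EXPD4 arrays, 6.98 and 7.29 in TPA arrays and 8.10, 8.30 and 8.20 in CTRL arrays. The CTRL arrays were tight and above every other array, while EXPD4 replicate 3 was far below the other EXPD4 arrays and just above the background limit. The difference was -0.77 ± 0.31 for EXPD4 against CTRL (adjusted p = 0.171) and -1.06 ± 0.35 for TPA against CTRL (adjusted p = 0.0631). Without EXPD4 replicate 3, TPA minus CTRL was unchanged at -1.06 and passed (adjusted p = 0.00099). EXPD4 minus CTRL was then -0.34 and did not pass, and EXPD4 minus TPA was 0.72 and passed (adjusted p = 0.0373). With the replicate number as a block, TPA minus CTRL was -1.28 and passed as well (adjusted p = 0.0264). Of 17 alternatives, however, TPA minus CTRL passed in 5 only, EXPD4 minus TPA in 1 and EXPD4 minus CTRL in 0.

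Adamts5, the aggrecanase best known from cartilage, was nearly level. It had 7.68, 7.55 and 7.70 in EXPD4 arrays, 7.56 and 7.54 in TPA arrays and 7.69, 7.79 and 7.70 in CTRL arrays. The TPA arrays lay below the CTRL arrays by a small amount, at -0.18 ± 0.08 (adjusted p = 0.17), and overlapped with the EXPD4 arrays. EXPD4 and CTRL overlapped and differed by -0.08 ± 0.07 (adjusted p = 0.584).

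Over the 10 members, 1 was called between EXPD4 and CTRL (0 higher, 1 lower), where 11.5% of all genes were called (5.69% higher, 5.78% lower). Between TPA and CTRL 4 were called (1 higher, 3 lower), where 20.8% of all genes were (10.2% higher, 10.6% lower). Between EXPD4 and TPA 3 were called (2 higher, 1 lower), against 5.98% of all genes (3.16% higher, 2.81% lower). At an unadjusted p under 0.05 limma counted 4, 7 and 4 members in these comparisons, beside 23.7%, 31.7% and 19.3% of all genes. The median difference over the members was -0.15, -0.48 and 0.24, beside 0.01, -0.03 and 0.03 over all genes. EXPD4 and CTRL arrays did not overlap for 4 members (30% of all genes), TPA and CTRL arrays for 8 (45.8%) and EXPD4 and TPA arrays for 6 (35.7%). The group means ran CTRL, EXPD4, TPA from high to low in 7 members, an order found in 28.7% of all genes. The reverse order was found in Adamts9 and in 21.6% of all genes, and Adam15 and Adam17 were highest in EXPD4. Adam19, under the background limit on all 8 arrays, is part of the medians and of the 7 members in the first order. It is also among the 7 at an unadjusted p under 0.05 in limma and the 8 without overlap between TPA and CTRL. The comparisons share arrays and so are not independent of each other.

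**Figure D2:**
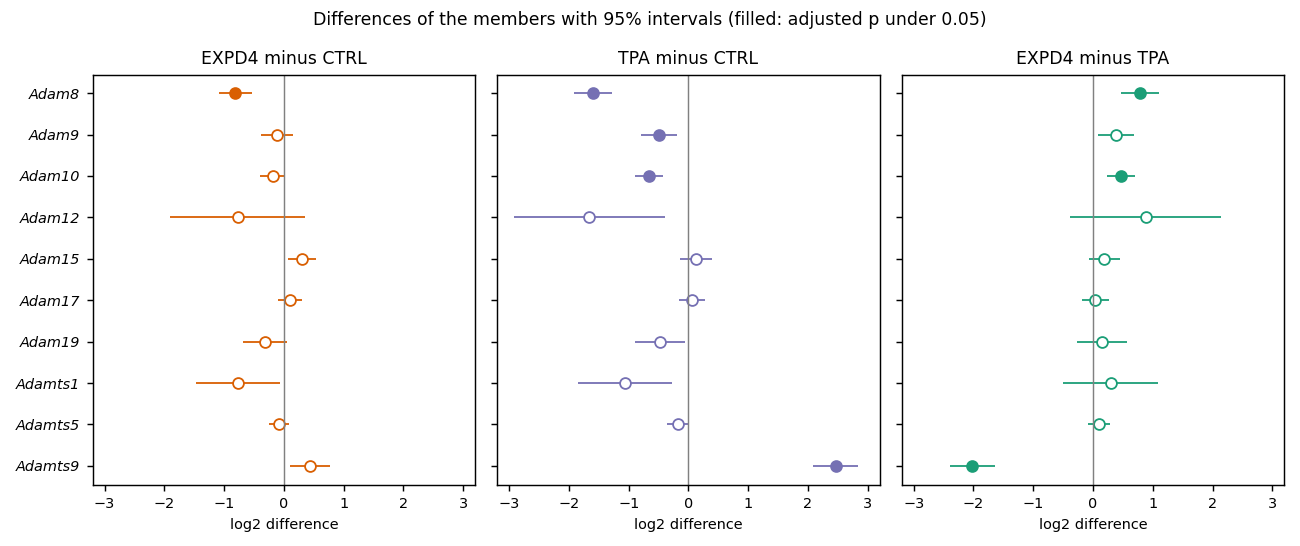
Log2 difference (horizontal axis) of each member in the 3 comparisons, with bars for the 95% interval and filled points for an adjusted p under 0.05. Adamts9 differs by 2.46 between TPA and CTRL, opposite to Adam8 at -1.60, and the interval of Adam12 is the widest.

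Of the members, 7 had more than 1 probe set, and these did not always share a direction. Adam10 had 3 probe sets above the limit on all arrays, and each was lower in TPA than in CTRL. The second gave 10.12, 9.87 and 9.96 in EXPD4 arrays, 8.94 and 9.61 in TPA arrays and 10.41, 10.48 and 10.42 in CTRL arrays, with a difference of -1.16 ± 0.17 for TPA against CTRL (adjusted p = 0.00197 over all probe sets). The third gave 9.27, 9.42 and 9.26 in EXPD4 arrays, 8.96 and 9.07 in TPA arrays and 9.74, 9.71 and 9.88 in CTRL arrays. There the TPA difference was -0.77 ± 0.09 (adjusted p = 0.000622) and EXPD4 was lower than CTRL too (-0.46 ± 0.08, adjusted p = 0.00876), so the leading probe set, at -0.19, shows the smallest Adam10 difference of the 3 between EXPD4 and CTRL. With the mean of the 3 probe sets that difference was -0.37 and passed (adjusted p = 0.0114). Between EXPD4 and TPA the other probe sets of Adam10 gave 0.71 ± 0.17 (adjusted p = 0.0547) and 0.30 ± 0.09 (adjusted p = 0.105), and neither passed.

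The second Adamts9 probe set was higher in TPA as well, at 6.43 and 6.69, against 5.78 to 6.06 in CTRL arrays (0.61 ± 0.13, adjusted p = 0.0128). It was above the background limit on 1 of 8 arrays. The third, under the limit on all 8, differed by 0.16 ± 0.09 (adjusted p = 0.259). The 3 Adam17 probe sets differed in sign between EXPD4 and CTRL, at 0.10, -0.13 and 0.04, and none passed. The 4 Adam15 probe sets were all higher in EXPD4 than in CTRL, by 0.29 to 0.33, and none passed by itself. The mean of the 4 did (0.31, adjusted p = 0.0267). Between TPA and CTRL they differed in sign, at 0.12, 0.15, 0.35 and -0.14, and none passed. The second Adam12 probe set, under the limit on all 8 arrays, was lower in TPA than in CTRL (-0.64 ± 0.12, adjusted p = 0.00692), a difference within the background range.

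**Figure D3:**
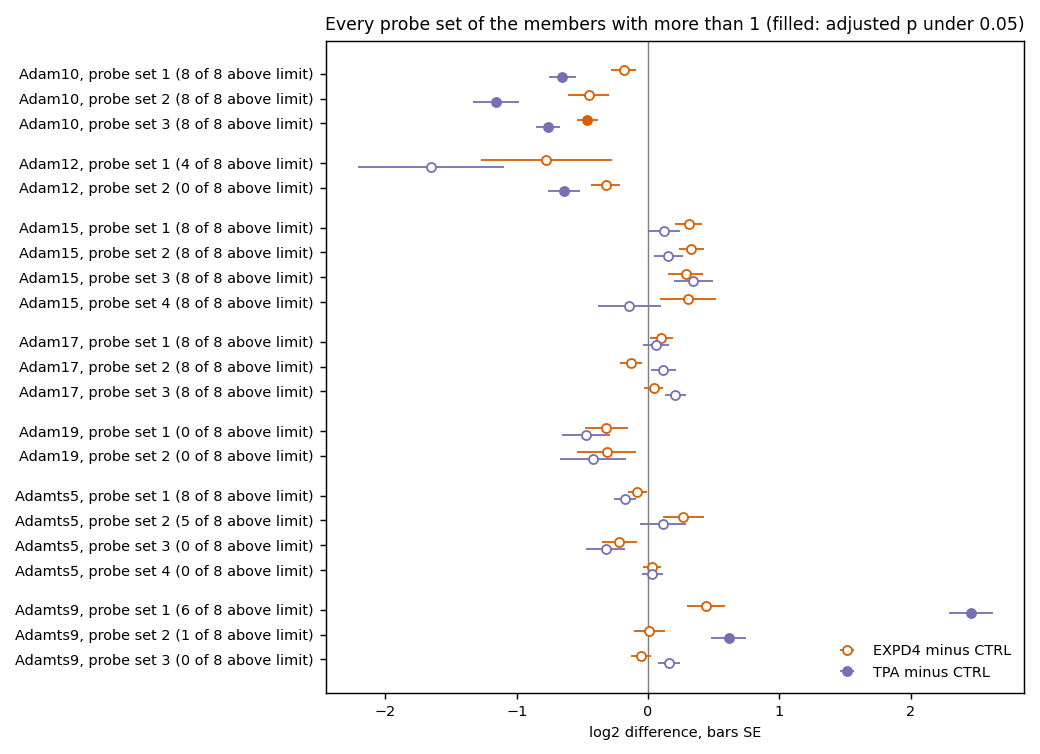
Log2 difference (horizontal axis, bars SE) from CTRL of every probe set of the 7 members with more than 1, ordered by mean signal within a gene; filled points have an adjusted p under 0.05 over all probe sets. The 3 Adam10 probe sets lie at -0.65 to -1.16 for TPA, and the Adamts9 difference shrinks with the brightness of the probe set.

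Another 35 genes named Adam, Adamts or Adamtsl with a number were on the array, many of them testis genes. Of these, 24 lay under the background limit on every array. None was called by limma between EXPD4 and CTRL (11.5% of all genes) or between EXPD4 and TPA (5.98%). At an unadjusted p under 0.05 there were 4 and 2, beside 23.7% and 19.3% of all genes. Between TPA and CTRL, where 20.8% of all genes were called, 1 gene of the 35 was. That gene was Adamts18, with 5.37 and 5.22 in TPA arrays and 4.81 to 5.05 in CTRL arrays, under the limit on all of them. Adamtsl4, an ADAMTS-like protein without protease activity, had 7.64 and 7.72 in TPA arrays and 7.13 to 7.42 in CTRL arrays (0.43 ± 0.16, adjusted p = 0.101). Adam11, a relative without an active protease site, differed by -0.28 ± 0.09 between EXPD4 and CTRL (adjusted p = 0.076), and Adam24, under the limit on every array, by -0.33 ± 0.11 between TPA and CTRL (adjusted p = 0.0592).

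Adamts4, another aggrecanase, was above the limit on 1 array, CTRL replicate 1. It had 5.09 to 5.68 in EXPD4 arrays, 4.58 and 4.82 in TPA arrays, and 7.30 in CTRL replicate 1 with at most 5.13 in the other CTRL arrays. CTRL replicate 1 also had the highest Adam12 and Adam19 signals. The summed linear signal of 7 endothelial markers was 695 to 1098 in EXPD4 arrays, 645 and 624 in TPA arrays, and 2103 in CTRL replicate 1 with 702 and 729 in the other CTRL arrays. Cdh5, the endothelial cadherin, had 9.73 in CTRL replicate 1, and Tek was the 1 marker of the list under the limit on every array. Adam12 was high in CTRL replicate 2 as well (7.77), where the endothelial sum was 702, and had 6.13 in CTRL replicate 3, with a sum of 729. In EXPD4 replicates 1, 2 and 3 Adam12 had 5.88, 7.07 and 6.80, beside sums of 695, 1098 and 1090. In the TPA arrays it had 5.75 and 5.65, beside sums of 645 and 624. The summed signal of 7 fibroblast markers was 586, 434 and 550 in CTRL replicates 1, 2 and 3. It was 520, 477 and 497 in EXPD4 replicates 1, 2 and 3, and 766 and 664 in the TPA arrays. The sum of 3 pericyte markers was 242 to 293 over all arrays. CTRL replicate 1 also had the highest sum of macrophage and neutrophil markers (1004). The part of any of these cells in these signals was not tested.

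**Figure D4:**
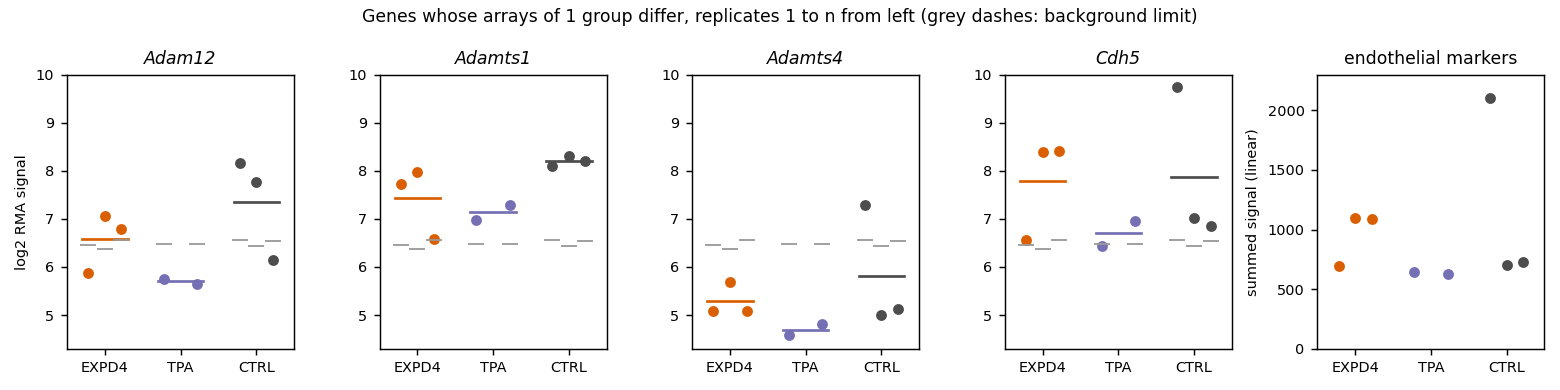
Log2 RMA signals by array of Adam12, Adamts1, Adamts4 and Cdh5, and the summed linear signal of 7 endothelial markers; points are arrays with replicates from left to right, bars are group means and grey dashes are background limits. CTRL replicate 1 holds the single high Adamts4 signal (7.30) and the highest endothelial sum (2103), and EXPD4 replicate 3 the low Adamts1 signal (6.58).

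Regulators and inhibitors of the proteases were looked at next, with 19 of 21 listed genes measured. Between EXPD4 and CTRL 2 were called higher and 3 lower, where 11.5% of all genes were called. Between TPA and CTRL 4 were called higher and 3 lower (20.8% of all genes). Between EXPD4 and TPA 0 were called higher and 2 lower (5.98% of all genes). The median differences were -0.08, -0.03 and -0.02, close to those of all genes. Of the tissue inhibitors, Timp1 and Timp3 were called in opposite directions between TPA and CTRL. Timp2 passed in no comparison (0.86 ± 0.34 for TPA against CTRL, adjusted p = 0.118). Timp3, which binds the matrix and inhibits ADAM17 and several ADAMTS proteases, had 8.12, 8.50 and 7.92 in EXPD4 arrays, 10.62 and 10.42 in TPA arrays and 7.84, 7.63 and 6.62 in CTRL arrays. It was higher in TPA than in CTRL (3.16 ± 0.32, adjusted p = 0.000233) and lower in EXPD4 than in TPA (-2.34 ± 0.32, adjusted p = 0.00528), while EXPD4 minus CTRL was 0.82 ± 0.29 (adjusted p = 0.119).

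Timp1, which also inhibits ADAM10, had 6.69, 6.68 and 7.46 in EXPD4 arrays, 5.96 in both TPA arrays and 10.34, 10.24 and 9.50 in CTRL arrays. It was lower in EXPD4 than in CTRL (-3.09 ± 0.26, adjusted p = 0.000218). The TPA arrays lay under the background limit, at least 11.7-fold lower than CTRL (adjusted p = 3.59e-05). Rhbdf1, which encodes an inactive rhomboid protein that helps ADAM17 mature, was higher in TPA than in CTRL (0.54 ± 0.07, adjusted p = 0.000888) and lower in EXPD4 than in TPA (-0.50 ± 0.07, adjusted p = 0.00599), while its relative Rhbdf2 passed in no comparison. Furin, the convertase that removes the prodomain of ADAM proteases, was lower in EXPD4 (-0.30 ± 0.08, adjusted p = 0.0466) and in TPA (-0.67 ± 0.09, adjusted p = 0.00108) than in CTRL. Among the tetraspanins that escort ADAM10, Tspan5 was higher than in CTRL in EXPD4 (0.45 ± 0.10) and TPA (0.63 ± 0.11). Tspan17 was lower in both (-0.42 ± 0.08 and -0.42 ± 0.09). The others measured, Tspan10, Tspan14, Tspan15 and Tspan33, passed in no comparison, and Tspan10 and Tspan15 lay under the background limit on every array. Sfrp1, a Wnt antagonist that can also inhibit ADAM10, was higher in EXPD4 (0.58 ± 0.10) and in TPA (0.48 ± 0.11) than in CTRL.

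Membrane proteins known to be shed by ADAM proteases formed the second list, with 27 of 29 genes measured. Between EXPD4 and CTRL 6 were called higher and 11 lower, where 11.5% of all genes were called. Between TPA and CTRL 8 were called higher and 11 lower (20.8% of all genes). Between EXPD4 and TPA 3 were called higher and 2 lower (5.98% of all genes). The medians were -0.23, -0.23 and -0.06, beside 0.01, -0.03 and 0.03 over all genes. Tgfa, an EGF receptor ligand released by ADAM17, had 8.39, 8.25 and 8.89 in EXPD4 arrays, 7.19 and 7.67 in TPA arrays and 10.69, 10.59 and 10.53 in CTRL arrays. The 3 groups did not overlap, and Tgfa was lower in EXPD4 than in CTRL (-2.10 ± 0.18, adjusted p = 0.000215), lower in TPA than in CTRL (-3.18 ± 0.20, adjusted p = 1.7e-05) and higher in EXPD4 than in TPA (1.08 ± 0.20, adjusted p = 0.0168).

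Ereg, another ligand of the EGF receptor, lay under the background limit in all EXPD4 and TPA arrays, against 8.15, 7.98 and 7.90 in CTRL arrays. Counted from the limit it was at least 2.93-fold lower in EXPD4 and at least 2.90-fold lower in TPA. Receptors were called in both directions. Il6ra, a subunit of the interleukin 6 receptor, was higher than in CTRL in EXPD4 (0.56 ± 0.07, adjusted p = 0.00163) and TPA (0.99 ± 0.08, adjusted p = 6.57e-05), as was Kitl, the ligand of the receptor KIT (0.88 ± 0.10 and 1.32 ± 0.11). Il1r2, the decoy receptor of interleukin 1, was also higher in EXPD4 (1.61 ± 0.18) and TPA (2.36 ± 0.20). Notch1, which ADAM10 cuts, was higher in both (0.53 ± 0.07 and 0.81 ± 0.08), while its ligand Jag1 was lower in both (-0.70 ± 0.07 and -0.69 ± 0.07). Notch2, another Notch receptor, was lower in TPA than in CTRL (-0.46 ± 0.09, adjusted p = 0.00721). Met, the receptor of hepatocyte growth factor, was lower in EXPD4 (-0.82 ± 0.10, adjusted p = 0.00145) and in TPA (-1.23 ± 0.11, adjusted p = 0.000136) than in CTRL.

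Cxcl16, a membrane chemokine shed by ADAM10, was called in opposite directions. It had 9.78, 9.82 and 9.64 in EXPD4 arrays, 10.74 and 10.82 in TPA arrays and 9.99, 10.01 and 10.19 in CTRL arrays. All EXPD4 arrays lay below and both TPA arrays above the CTRL arrays. The difference from CTRL was -0.32 ± 0.08 in EXPD4 (adjusted p = 0.0429) and 0.71 ± 0.09 in TPA (adjusted p = 0.00084), and EXPD4 minus TPA was -1.03 ± 0.09 (adjusted p = 0.000852).

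**Figure D5:**
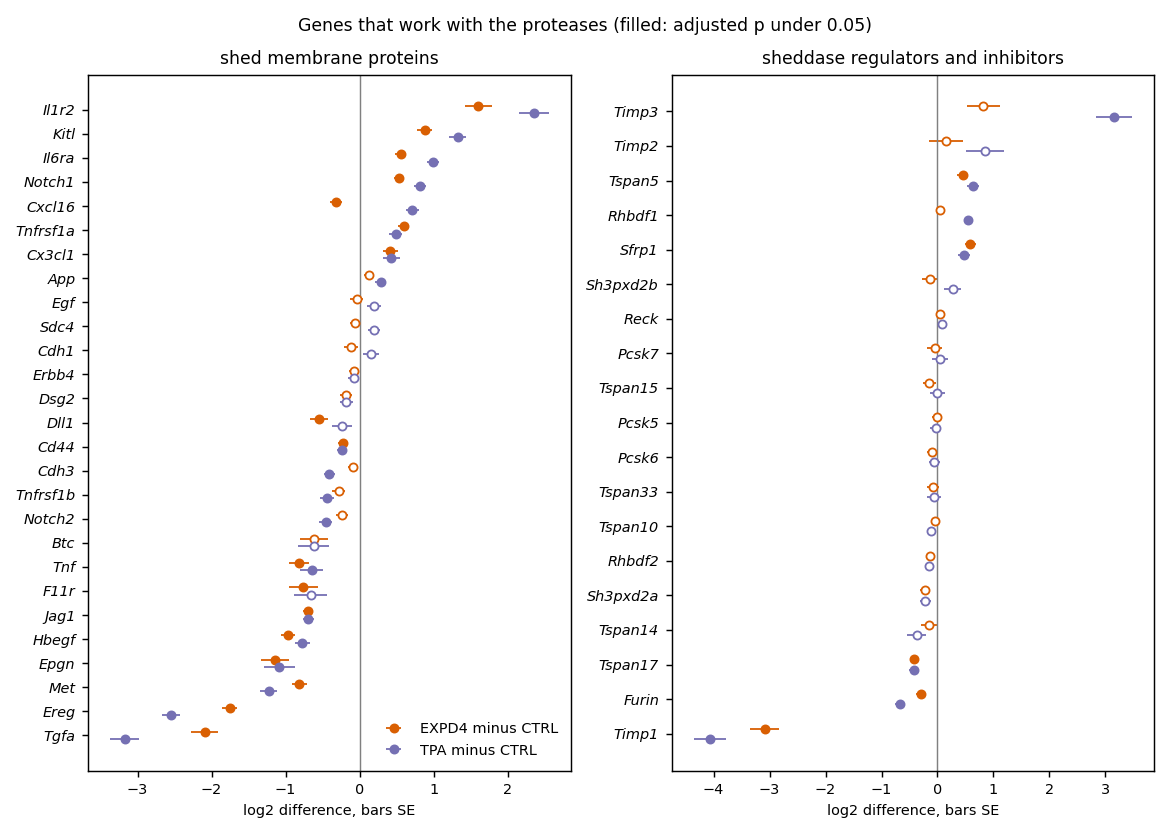
Log2 difference from CTRL (horizontal axis, bars SE) of 27 shed membrane proteins and 19 regulators and inhibitors, ordered by the TPA difference, with filled points for an adjusted p under 0.05. Tgfa and Ereg lie at the low end in both comparisons, Timp1 and Timp3 at opposite ends, and Cxcl16 on either side of 0.

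Matrix substrates of ADAMTS proteases and related proteoglycans made up the last list, with 12 of 14 genes measured and 5 of them under the background limit on every array. Between EXPD4 and CTRL 0 were called higher and 1 lower, where 11.5% of all genes were called. Between TPA and CTRL 1 was called higher and 2 lower (20.8% of all genes). Between EXPD4 and TPA 1 was called higher and 1 lower (5.98% of all genes). The medians were -0.04, -0.11 and -0.04, beside 0.01, -0.03 and 0.03 over all genes. Vcan, the versican that Adamts9 cuts, had 7.20, 7.11 and 7.09 in EXPD4 arrays, 6.85 and 6.93 in TPA arrays and 6.74, 7.19 and 7.52 in CTRL arrays, with overlap between TPA and CTRL and between EXPD4 and CTRL. It passed in no comparison (adjusted p = 0.398 for TPA against CTRL). Acan, aggrecan, did not pass either (-0.35 ± 0.13 for EXPD4 against CTRL, adjusted p = 0.138).

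Fbln1, a matrix protein that acts as a cofactor of ADAMTS1, had 11.06, 11.18 and 11.03 in EXPD4 arrays, 10.17 and 9.80 in TPA arrays and 11.03, 11.23 and 11.21 in CTRL arrays. Only the TPA arrays stood apart, at -1.17 ± 0.12 against CTRL (adjusted p = 0.000239) and 1.10 ± 0.12 for EXPD4 minus TPA (adjusted p = 0.00187). Hspg2, the basement membrane proteoglycan perlecan, was lower than in CTRL in EXPD4 (-0.69 ± 0.09, adjusted p = 0.00207) and in TPA (-0.64 ± 0.10, adjusted p = 0.00263). Dcn, decorin, was higher in TPA than in CTRL (1.69 ± 0.23, adjusted p = 0.00117) and lower in EXPD4 than in TPA (-1.14 ± 0.23, adjusted p = 0.0261).

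Likeness of pattern was measured for the 4 members whose group means spanned at least 1 log2 step, as the root mean square difference over the 8 arrays after each gene was centred on its own mean. The genes nearest to Adam8 were Mtss1 (0.12), Fhl3 (0.12) and Ubash3b (0.13), beside an SD of Adam8 itself over the arrays of 0.64. Those nearest to Adamts9 were Ptger4 (0.22), a prostaglandin E2 receptor, Bmp2 (0.25), a bone morphogenetic protein, and Cish (0.27), a cytokine signalling inhibitor. Bmp2 had a mean of 8.39 in EXPD4 arrays, 10.33 in TPA arrays and 7.58 in CTRL arrays. Those nearest to Adamts1 were 9530077C05Rik (0.24), Pla2g4e (0.24) and Itga7 (0.25), beside an SD of 0.59. For Adam12 the nearest were Lhfp (0.41), Lce1i (0.47) and Pxylp1 (0.47), beside an SD of 0.89, a poorer likeness. Some of these genes had group means under the lowest background limit (6.37), so their likeness is partly one of background values. These were Pxylp1 in all groups, Lhfp in EXPD4 (6.26) and TPA (5.67), Ptger4 in EXPD4 (5.90) and CTRL (5.51), and Itga7 in TPA (6.21). All of these use the same 8 arrays and are descriptions.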

How the data were processed

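Sorted basal cells were hybridised to 1 Affymetrix array per mouse, in groups set from the sample titles (3 EXPD4, 2 TPA and 3 CTRL). The authors deposited signals on a log2 scale, and the submitters' processing notes name RMA without a version. Per the labels' protocols, cDNA amplification was stopped after 25 cycles. The number of arrays limits the precision.

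Of 45141 probe sets, 28898 carried 1 gene symbol in the platform's annotation of 2016, 551 several, and 15692 were unnamed here. Each gene took its probe set of highest mean, which gave 17097 genes. A linear model with 1 mean for each group used lmFit and eBayes of limma 3.58.1 (R 4.3.3) on the 8 arrays together, leaving 5 residual degrees of freedom to which eBayes added 3.54, with Benjamini-Hochberg adjustment over all genes and a threshold of 0.05. Simulated data served to test the script. A bound sets the brighter group's mean against the dimmer group's mean with signals raised to the background limit.

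Members, lists, the background limit and the naming rule were chosen with earlier results of these data known. The rule took all members, up to 4 genes of each list with the smallest p, and the 3 nearest genes in pattern. Rhbdf2, Tspan5, Tspan17, Sfrp1, Timp2, Il1r2, Notch1, Notch2, Met, Jag1, Cxcl16, Vcan, Adamts4 and Cdh5 were added after their values were seen. The alternatives covered normalization, filter, floor, probe set choice, variance model, array weights, arrays fitted, left-out arrays and a replicate block.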

Additional observations from a re-analysis of the deposited data

How the results depend on the processing

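Of the member differences recomputed under the alternatives, 487 kept their direction and their side of the threshold, 16 lost a call, 14 gained one and 5 turned. The 5 turned values were never called: Adam17 between EXPD4 and TPA with the mean of its probe sets (-0.12) and with its next probe set (-0.25), Adam17 between EXPD4 and CTRL with its next probe set (-0.13), and Adamts5 with its next probe set for EXPD4 (0.27) and TPA (0.11) against CTRL. The members called between EXPD4 and CTRL numbered 3 with probe sets averaged per gene, 2 with array weights and 1 to 2 with an array left out, and those between EXPD4 and TPA 1 to 3 with an array left out. Over all genes, calls between EXPD4 and CTRL numbered 1960, and 1261 to 2076 with an array left out, with the lowest without CTRL replicate 2. Those between EXPD4 and TPA numbered 1022, and 560 to 922 with an array left out (560 without EXPD4 replicate 3, 568 without TPA replicate 1 and 636 without EXPD4 replicate 2), 511 with only the arrays compared and 541 with the replicate block. With every probe set tested by itself 2972 and 5816 probe sets were called for EXPD4 and TPA against CTRL, over 28898 tests in place of 17097. Residuals of arrays of the same number correlated at -0.18 to 0.03 over genes, and those of arrays of different numbers and groups at -0.15 to 0.12. Residuals from the mean of 2 or 3 arrays offset each other, so these values cannot decide whether arrays of the same number belong together. The replicate block changed no other member call than those given in the report for Adam9, Adam10 and Adamts1. A fit without 1 TPA array assumes that the lone array varies like the other groups. Signal near background limits Adam12, Adam19 and Adamts9 in CTRL arrays.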

Other observations

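Markers of other cells came in short lists, where 1 call is a large share of the list. Over all genes, 11.5% were called for EXPD4 against CTRL, 20.8% for TPA against CTRL and 5.98% for EXPD4 against TPA. Among 7 endothelial markers limma called 0 in any comparison (0, 0 and 1 at an unadjusted p under 0.05 for EXPD4 against CTRL, TPA against CTRL and EXPD4 against TPA), with medians of -0.15, -0.77 and 0.43. Among 7 fibroblast markers 4 lay under the background limit on every array, and the call was Dcn alone, higher in TPA than in CTRL and lower in EXPD4 than in TPA. Of 3 pericyte markers 1 was lower in TPA than in CTRL, namely Rgs5. Of 8 macrophage and neutrophil markers Cd14 alone was lower than in CTRL, in EXPD4 and in TPA. Of 5 Langerhans cell markers H2-Ab1 alone was called, lower in both, and Cd207 lay under the limit on every array. Between EXPD4 and CTRL, Cd207, Cd86 and H2-Aa differed by 0.06, 0.04 and 0.06, and Cd74 by -0.24. All 4 T cell markers lay under the limit on every array. Of 6 pigment cell markers Mitf was higher in TPA than in CTRL and lower in EXPD4 than in TPA, under the limit on every array. Of 6 genes listed as bulge markers Krt75 alone was called, higher in TPA than in CTRL. It lay under the limit in all EXPD4 and CTRL arrays, and Cd34, Lgr5 and Lhx2 lay under it on every array.

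Markers of the suprabasal layers differed among themselves. Of 6 measured, 3 were called higher in EXPD4 than in CTRL and 3 in TPA than in CTRL, namely Krt1, Krt10 and Dsg1a. Over all genes 5.69% and 10.2% were called higher in these comparisons. The summed linear signal of the list was 16030 to 17382 in EXPD4 arrays, 14366 and 15712 in TPA arrays and 4188 to 9006 in CTRL arrays. Ivl, which encodes the envelope protein involucrin, had the opposite sign and did not pass (-0.33 ± 0.13 for EXPD4 against CTRL, adjusted p = 0.168, and -0.48 ± 0.15 for TPA against CTRL, adjusted p = 0.0532), and Lor and Flg lay under the limit on every array. Of 5 basal markers Itga6 alone was called against CTRL, as given above.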
